A study of Mus musculus with 15 samples.

Results

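The variable (V) segments of the immunoglobulin genes were examined in colon RNA of 15 mice. The members were all genes that GENCODE release M21 types as IG_V_gene, namely 218 of the 55335 genes in the files. They comprised 113 heavy-chain segments on chromosome 12, 102 kappa light-chain segments on chromosome 6 and 3 lambda light-chain segments on chromosome 16, and all 218 had a value in every file. Another 158 IG_V_pseudogene and 4 IG_LV_gene entries were not members.

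The mice formed 3 groups of 5. DSS_ICB_Fp mice received dextran sulfate sodium (DSS, a polymer given in the drinking water to injure the colon lining), immune checkpoint blockade (ICB) and a gavage of Faecalibacterium prausnitzii, a butyrate-producing gut bacterium. DSS_ICB mice received DSS and ICB, and DSS mice received DSS. All mice carried the DSS injury, and no mice without DSS were analysed here. The labels give no strain, sex, age, checkpoint antibody, control antibody, control gavage, dose or cage, so effects of an agent and of its administration or housing cannot be told apart. Levels are given in FPKM, a fragment number scaled to transcript length and to the mapped fragments of the library, with 1 value per gene and mouse. The question behind the groups was what blockade adds to DSS injury and what the bacterium adds to both.

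Each B cell builds its antibody genes by joining a V segment to a J segment in a light-chain locus, and to a D and a J segment in the heavy-chain locus, by recombination with the RAG enzymes. The joined V segment is then transcribed with a constant gene, weakly in a resting B cell and very strongly in a plasma cell, the antibody-secreting end stage. The colon wall holds many IgA plasma cells and, in lymphoid follicles, many resting B cells, so bulk RNA reads on V segments add up over both. In bulk tissue, fewer cells of a type and less RNA per cell cannot be told apart.

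Sequences are shown of segments used recurrently or dominant in a single mouse, and of near copies, between which reads may be shared. Whether sequence bears on use was not tested. The printed stretch is the 3′ end, up to 300 bases, of the coding V exon in the GENCODE M21 transcripts (GRCm38), 5′ to 3′, on the minus strand in all 8 cases. Capitals in the first 5 mark TANTNNTG, the codons around the conserved cysteine that precedes the join. Searched on the coding strand only in the last 45 bases, these letters were in 207 of the 218 V exons, or 95%. Iglv1 (chr16:19085017-19085316) and Igkv10-96 (chr6:68631963-68632260) were the segments used in all 15 mice. Ighv1-64 (chr12:115507545-115507844) held the highest mean share of the heavy-chain signal. Igkv4-59 (chr6:69438218-69438517) and Ighv2-2 (chr12:113588267-113588566) dominated 1 mouse.
Iglv1: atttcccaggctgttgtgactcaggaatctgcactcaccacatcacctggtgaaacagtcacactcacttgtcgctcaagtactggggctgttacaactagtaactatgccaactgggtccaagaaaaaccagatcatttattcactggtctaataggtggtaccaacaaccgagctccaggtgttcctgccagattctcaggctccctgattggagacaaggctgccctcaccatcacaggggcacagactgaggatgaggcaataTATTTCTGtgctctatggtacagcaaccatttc
Igkv10-96: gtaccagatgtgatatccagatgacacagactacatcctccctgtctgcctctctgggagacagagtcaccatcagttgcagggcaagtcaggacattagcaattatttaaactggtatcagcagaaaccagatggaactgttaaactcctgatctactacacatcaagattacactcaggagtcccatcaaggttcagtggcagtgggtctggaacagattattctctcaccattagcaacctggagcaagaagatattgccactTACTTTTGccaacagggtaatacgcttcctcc
Ighv1-64: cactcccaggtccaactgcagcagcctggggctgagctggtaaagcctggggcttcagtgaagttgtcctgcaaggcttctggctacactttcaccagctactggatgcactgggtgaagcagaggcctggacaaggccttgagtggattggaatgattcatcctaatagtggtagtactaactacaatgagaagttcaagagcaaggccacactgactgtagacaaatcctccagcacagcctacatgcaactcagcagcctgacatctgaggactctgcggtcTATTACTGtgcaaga
Igkv4-59: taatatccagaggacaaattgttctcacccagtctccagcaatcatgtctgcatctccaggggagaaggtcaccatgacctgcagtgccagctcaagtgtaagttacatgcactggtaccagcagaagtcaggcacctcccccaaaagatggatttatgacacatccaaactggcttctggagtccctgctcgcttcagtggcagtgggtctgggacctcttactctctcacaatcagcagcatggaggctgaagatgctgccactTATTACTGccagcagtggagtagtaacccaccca
Ighv2-2: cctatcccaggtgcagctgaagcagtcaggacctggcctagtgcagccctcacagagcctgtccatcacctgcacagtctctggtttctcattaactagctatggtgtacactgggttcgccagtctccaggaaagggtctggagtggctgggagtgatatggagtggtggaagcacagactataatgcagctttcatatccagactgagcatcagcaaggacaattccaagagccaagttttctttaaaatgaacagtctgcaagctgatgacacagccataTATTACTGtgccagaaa

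The nearest copies of 3 of these follow, with capitals at the bases that differ from Iglv1 in Iglv2 (chr16:19260401-19260700), from Igkv4-59 in Igkv4-70 (chr6:69267888-69268186) and from Ighv2-2 in Ighv2-4 (chr12:113653291-113653590). Iglv2 differed from Iglv1 at 8 of 302 compared bases, with a longest identical run of 104 bases. Igkv4-70 differed from Igkv4-59 at 8 of 299 bases, with a longest run of 94. Ighv2-4 differed from Ighv2-2 at 6 of 304 bases, with a longest run of 128.
Iglv2: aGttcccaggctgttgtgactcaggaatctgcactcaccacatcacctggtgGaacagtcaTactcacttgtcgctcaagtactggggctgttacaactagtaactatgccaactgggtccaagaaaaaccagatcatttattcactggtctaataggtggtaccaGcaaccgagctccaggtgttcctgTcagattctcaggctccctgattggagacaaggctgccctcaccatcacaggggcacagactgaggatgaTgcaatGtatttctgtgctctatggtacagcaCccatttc
Igkv4-70: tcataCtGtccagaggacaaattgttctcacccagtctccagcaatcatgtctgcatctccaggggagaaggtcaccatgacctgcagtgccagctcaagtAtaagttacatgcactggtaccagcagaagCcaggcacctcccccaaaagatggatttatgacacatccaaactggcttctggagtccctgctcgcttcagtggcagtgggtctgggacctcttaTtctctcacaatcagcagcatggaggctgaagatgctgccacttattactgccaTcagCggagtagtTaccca
Ighv2-4: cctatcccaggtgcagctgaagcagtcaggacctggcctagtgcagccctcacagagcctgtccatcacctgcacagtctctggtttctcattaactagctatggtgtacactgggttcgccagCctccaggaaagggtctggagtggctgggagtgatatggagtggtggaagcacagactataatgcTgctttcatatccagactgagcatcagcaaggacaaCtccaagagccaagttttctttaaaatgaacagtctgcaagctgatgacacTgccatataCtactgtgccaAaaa

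Such likeness was common among the members. The median V exon was 95.2% identical to its nearest other member, 116 exons were at least 95% identical to another, and 26 fell into 13 groups of at least 98% identity. How reads that match several segments were counted is not given in the sources used here. The split of signal between near copies is therefore uncertain, while sums over a locus or a family depend on it less.

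The depth, estimated from the steps between low FPKM values of 10664 genes, was 15460000 to 25050000 fragments a library, where a library is the RNA of 1 mouse. The depth chosen was the one that put the most low values at whole fragments. With a tolerance of 0.03 on the log2 scale, 37.7% to 45.3% of those low values lay there. That share was maximised by the choice and is no check of it. Of 356 low V segment values, which had no part in the choice, 29.2% lay at whole fragments. This depth and the fragment numbers below are therefore approximate. An FPKM of 1 on a segment of median length (358.5 bases) then corresponds to 5.5 to 9.0 fragments. The fragments on all V segments together came to an estimated 183 in DSS_ICB 3 and to 1890 to 24500 in the other 14 libraries. DSS_ICB 3 stood apart before any V segment was considered. Mitochondrially encoded genes took 33.2% of its FPKM, against 9.39% to 25.8% in the others. Its 9 colon epithelium markers summed to 472 FPKM, against 3043 to 4542 FPKM, its 4 smooth muscle markers to 9028 FPKM, against 701 to 3025 FPKM, and its 4 neutrophil markers to 1970 FPKM, against 1.17 to 819 FPKM. Group values of V segment use are given with and without it, and p-values below measure only the spread between these mice.

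The summed FPKM of the 218 V segments varied widely within each group, and no group stood apart. It was 1350, 455, 1211, 213 and 3856 FPKM in DSS_ICB_Fp mice 1 to 5, 660, 326, 31.7, 713 and 1182 FPKM in DSS_ICB mice 1 to 5, and 1233, 1104, 780, 269 and 937 FPKM in DSS mice 1 to 5. DSS_ICB_Fp 5 was the highest and DSS_ICB 3 the lowest of all libraries, and every group overlapped every other. The means were 1420 ± 1450 FPKM in DSS_ICB_Fp, 583 ± 434 FPKM in DSS_ICB and 865 ± 374 FPKM in DSS (SD, n = 5 each). Without DSS_ICB_Fp 5 its group averaged 807 FPKM, and without DSS_ICB 3 its group averaged 720 FPKM. The sums over the members are descriptions and were given no test.

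**Figure D1:**
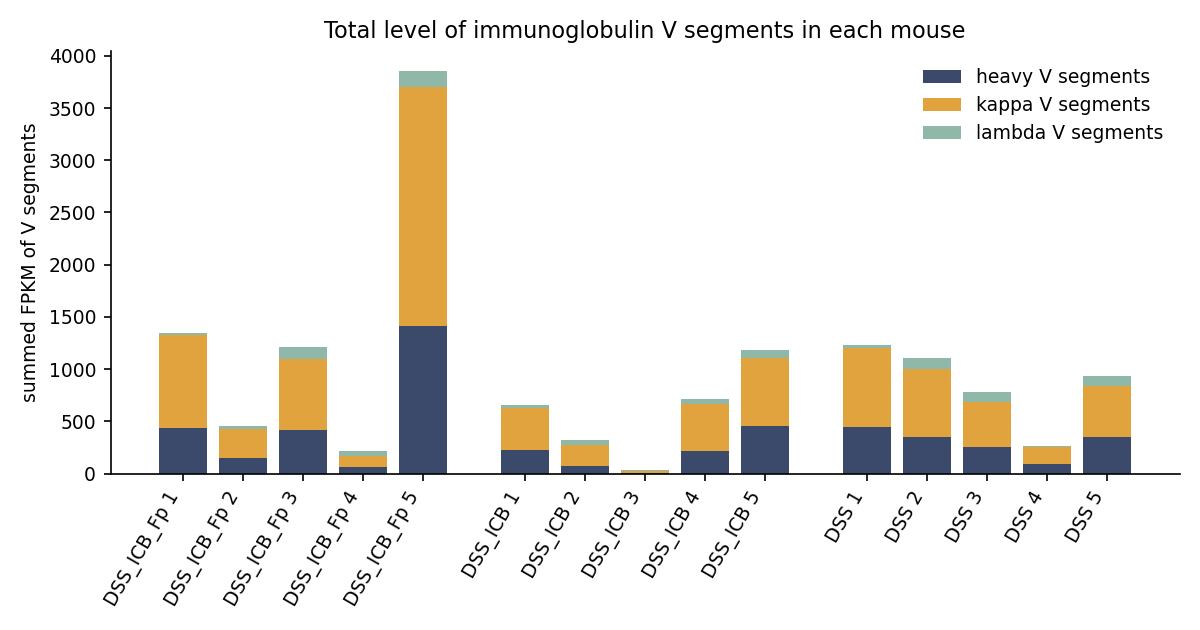
Summed FPKM of the V segments in each of the 15 mice, with the heavy, kappa and lambda loci stacked and the groups side by side. DSS_ICB_Fp 5 reached 3856 FPKM, DSS_ICB 3 reached 31.7 FPKM, and the remaining mice lay between 213 and 1350 FPKM.

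The kappa locus gave most of the V signal in every mouse, followed by the heavy-chain locus in 14 of 15, all but DSS_ICB 3. Of the V FPKM, kappa segments held 58.7 ± 5.95% in DSS_ICB_Fp, 62 ± 5.55% in DSS_ICB and 58.1 ± 3.86% in DSS. Heavy-chain segments held 32.9 ± 2.84% in DSS_ICB_Fp, 27.9 ± 9.93% in DSS_ICB and 34.2 ± 2.26% in DSS. Lambda segments held 8.44 ± 7.61% in DSS_ICB_Fp, 10.2 ± 5.99% in DSS_ICB and 7.76 ± 4.0% in DSS, with the highest share, 21%, in DSS_ICB_Fp 4. Without DSS_ICB 3 the DSS_ICB shares were 59.9 ± 3.67% kappa, 31.3 ± 7.24% heavy and 8.77 ± 5.89% lambda (n = 4). Groups overlapped in each of these shares.

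Breadth of use was measured as the number of segments with at least 1 FPKM. It was 70, 70, 83, 30 and 141 segments in DSS_ICB_Fp mice 1 to 5, 65, 64, 6, 115 and 126 in DSS_ICB mice 1 to 5, and 104, 109, 103, 45 and 94 in DSS mice 1 to 5. The lowest counts were in DSS_ICB 3, DSS_ICB_Fp 4 and DSS 4, which also had the lowest summed V FPKM, and the groups overlapped. The means were 78.8 ± 40.1 segments in DSS_ICB_Fp, 75.2 ± 47.9 in DSS_ICB and 91 ± 26.3 in DSS. Without DSS_ICB 3 the DSS_ICB mean was 92.5 segments.

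Breadth and evenness together were measured as the effective number of segments, the exponential of the Shannon entropy of the FPKM shares. It equals the number of segments where all are used alike. It was 9.47, 50.3, 36.0, 28.6 and 58.2 in DSS_ICB_Fp mice 1 to 5, 31.9, 44.2, 38.1, 87.0 and 63.7 in DSS_ICB mice 1 to 5, and 37.6, 50.4, 62.8, 34.2 and 54.1 in DSS mice 1 to 5. DSS_ICB_Fp 1 had the lowest and DSS_ICB 4 the highest effective number, and the groups overlapped. The means were 36.5 ± 19.1 in DSS_ICB_Fp, 53.0 ± 22.4 in DSS_ICB and 47.8 ± 11.8 in DSS. Since DSS_ICB 3 rested on an estimated 183 fragments, its value is limited by depth, and without it the DSS_ICB mean was 56.7 ± 24.1 (n = 4).

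**Figure D2:**
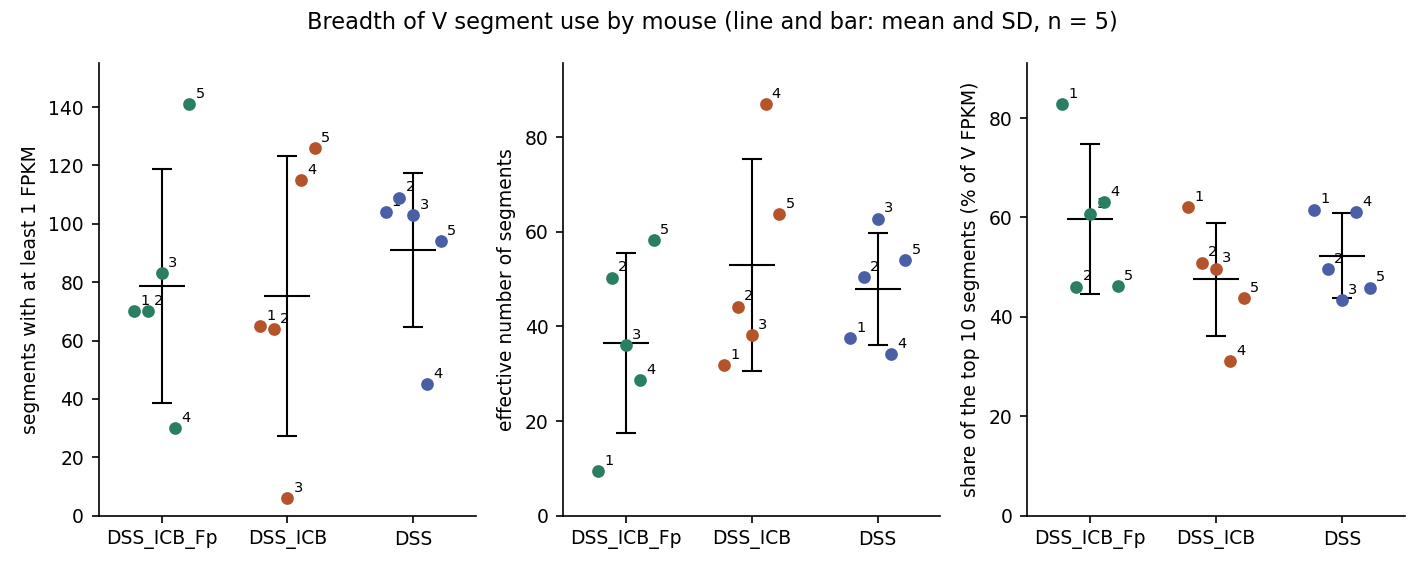
Number of segments with at least 1 FPKM, effective number of segments and share of the 10 highest segments, by group, with 1 point and its number per mouse and with the mean and SD (n = 5). The groups overlap in all 3 panels, with mice ranging from 6 to 141 segments used and from 9.47 to 87.0 effective segments.

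The 10 highest segments of each mouse held 82.8%, 46.1%, 60.6%, 63.1% and 46.2% of the V FPKM in DSS_ICB_Fp mice 1 to 5. They held 62.1%, 50.9%, 49.7%, 31.1% and 43.8% in DSS_ICB mice 1 to 5, and 61.6%, 49.6%, 43.4%, 61.1% and 45.9% in DSS mice 1 to 5. DSS_ICB_Fp 1 was the highest and DSS_ICB 4 the lowest, with overlap between all groups. The means were 59.8 ± 15.1% in DSS_ICB_Fp, 47.5 ± 11.3% in DSS_ICB and 52.3 ± 8.54% in DSS, with 47.0 ± 13% in DSS_ICB without DSS_ICB 3. The segments needed to reach 50% of the V FPKM numbered 2 in DSS_ICB_Fp 1 and 22 in DSS_ICB 4, and 6 to 14 in the other 13 mice. Across the total, the segments used, the effective number, the share of the top segment, the share of the top 10 and the locus share, taken over all segments and within each locus, the groups overlapped in all 66 pairwise checks of a measure that varied between mice.

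**Figure D3:**
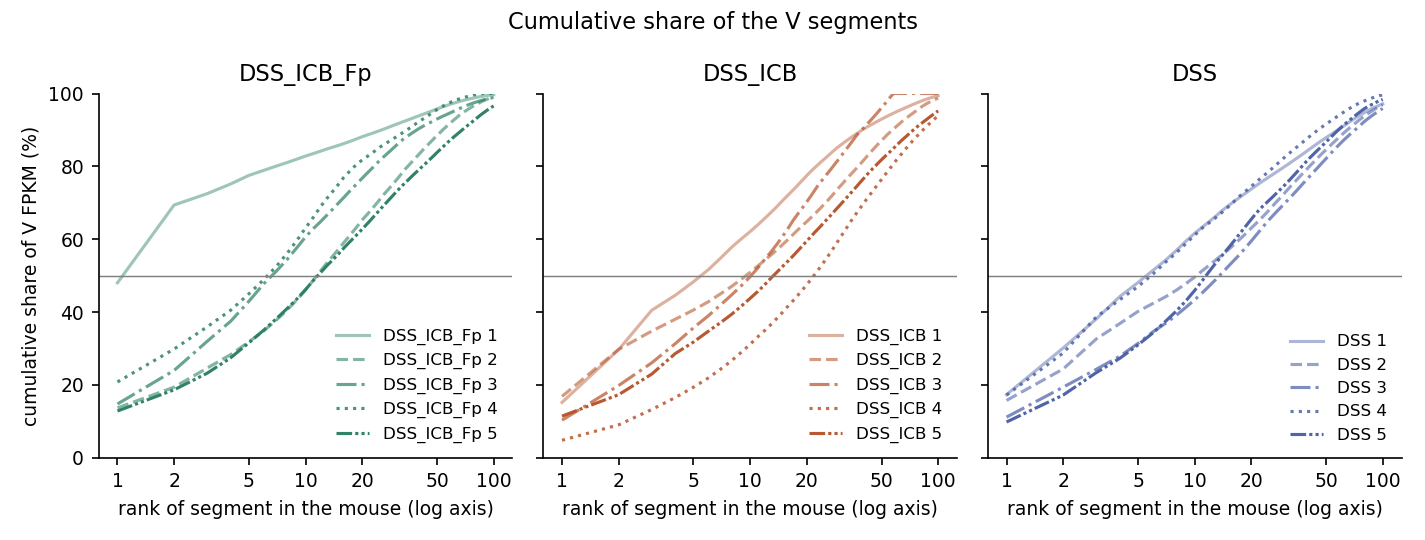
Cumulative share of the V FPKM against the rank of the segment in the same mouse (log axis), with 1 panel per group, 1 line per mouse and a grey line at 50%. The line of DSS_ICB_Fp 1 starts at 48.0% with its first segment, while that of DSS_ICB 4 starts at 4.82%.

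The mouse with the lowest effective number was dominated by 1 kappa and 1 heavy-chain segment. In DSS_ICB_Fp 1, Igkv4-59 had 649 FPKM, or 72.7% of the kappa V FPKM, and Ighv2-2 had 288 FPKM, or 65.9% of the heavy V FPKM. Each encodes most of the variable domain of its chain, and they are the first 2 steps of that mouse's curve in the plot of cumulative shares. In the other 4 DSS_ICB_Fp mice, Igkv4-59 had 5.32, 17.9, 1.56 and 76.4 FPKM and Ighv2-2 had 2.54, 22.4, 0.618 and 33 FPKM. In DSS_ICB mice 1 to 5, Igkv4-59 had 8.81, 2.99, 0.855, 17.7 and 4.44 FPKM. DSS mice 1 to 5 had 214, 20.1, 4.91, 1.84 and 16.2 FPKM of Igkv4-59, so DSS 1 was the second mouse in which this segment ranked first. Ighv2-2 was at most 8.15 FPKM in DSS_ICB mice and 36.8 FPKM in DSS mice. The near copy Igkv4-70 had 3.22 FPKM in DSS_ICB_Fp 1 and 0.744 FPKM in DSS 1, and the near copy Ighv2-4 had 4.37 FPKM in DSS_ICB_Fp 1.

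Iglv1, which encodes the most used lambda V region, and Igkv10-96, a kappa V region, reached 1 FPKM in all 15 mice. Iglv1 had 18.7, 25.9, 111, 44.4 and 134 FPKM in DSS_ICB_Fp mice 1 to 5, 27.1, 54.9, 3.28, 30.0 and 69.5 FPKM in DSS_ICB mice 1 to 5, and 19.5, 95.3, 87.2, 9.15 and 92.2 FPKM in DSS mice 1 to 5. Igkv10-96 had 6.30, 62.4, 38.7, 19.2 and 121 FPKM in DSS_ICB_Fp mice 1 to 5, 95.8, 16.3, 3.01, 23.4 and 66.5 FPKM in DSS_ICB mice 1 to 5, and 40.9, 36.9, 64.1, 46.2 and 15.3 FPKM in DSS mice 1 to 5. Both were lowest in DSS_ICB 3 and highest in DSS_ICB_Fp 5, and their groups overlapped. Iglv1 was the top segment of 5 mice spread over the 3 groups, namely DSS_ICB_Fp 4, DSS_ICB 2, DSS_ICB 3, DSS 3 and DSS 5. Its share of the lambda V FPKM ran from 65.3% to 99.2%, with Iglv2 at up to 26.9% and Iglv3 at up to 21%.

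Among heavy-chain segments Ighv1-64 had the highest mean share of its locus, 12.2%. It had 2.61, 23.9, 97.0, 7.66 and 61.3 FPKM in DSS_ICB_Fp mice 1 to 5, 100, 3.21, 0.182, 9.36 and 19.4 FPKM in DSS_ICB mice 1 to 5, and 31.7, 14, 38.3, 26.6 and 30.8 FPKM in DSS mice 1 to 5. DSS_ICB 1, where it made up 44.0% of the heavy V FPKM, and DSS_ICB_Fp 3 were the high libraries, and the groups overlapped. Ighv1-26 and Ighv3-6 were the other heavy-chain segments used in 14 mice, all but DSS_ICB 3 in each case.

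The segments split into a shared set and a long tail. At 1 FPKM, 9 segments were used in at least 14 of the 15 mice, 58 in at least 10 and 113 in at least 5. Another 59 were used in 1 to 4 mice, 17 of them in 1 mouse, and 46 in none, of which 19 were listed at 0 in every file. The 9 segments used in at least 14 mice were Ighv1-26, Ighv1-64, Ighv3-6, Igkv1-110, Igkv1-117, Igkv4-59, Igkv6-15, Igkv10-96 and Iglv1. They held 53.6%, 32.7%, 34.2%, 47.2% and 15.3% of the V FPKM in DSS_ICB_Fp mice 1 to 5, 42.3%, 29.0%, 30.5%, 22% and 20.6% in DSS_ICB mice 1 to 5, which averaged 28.5% without DSS_ICB 3, and 30.5%, 38.7%, 31.0%, 39.0% and 25.3% in DSS mice 1 to 5. DSS_ICB_Fp 5, the mouse with the highest total, had the lowest share in them. In every mouse but DSS_ICB_Fp 1, most of the signal lay in segments less widely used.

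Of 282 pairs of segment and mouse at 10 FPKM or more, some were high against the usual share of the segment. A segment was said to stand out in a mouse at 10 FPKM or more and a share of the V FPKM at least 10 times the median share in the other 14 mice. This held for 69 of the 282 pairs and for 56 segments, 44 of which met it in 1 mouse. Since the rule compares with the median share of the other mice, it favours segments with a high share in few mice. Igkv4-59 and Igkv1-117, each used in 14 mice, also met it. The mouse had the highest FPKM of all 15 in 48 of the 69 pairs, and in 37 of those 44 segments, while for the other 7 another mouse was as high or higher. In DSS_ICB_Fp 1, for example, Igkv8-24 had 42.2 FPKM, against 43.4 FPKM in another mouse. Standing-out segments numbered 4, 4, 6, 1 and 10 in DSS_ICB_Fp mice 1 to 5, 7, 1, 0, 5 and 6 in DSS_ICB mice 1 to 5, and 7, 8, 2, 2 and 6 in DSS mice 1 to 5. They held 75.1% of the V FPKM in DSS_ICB_Fp 1 and 50.1% in DSS 1, and 0 to 35.5% in the other 13 mice.

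The segments that stood out differed from mouse to mouse. In DSS_ICB_Fp 5, Igkv16-104 had 496 FPKM, against at most 27.6 FPKM in the other 14 mice, and Ighv2-3 had 224 FPKM, against at most 1.42 FPKM. Igkv5-39 had 179 FPKM in DSS_ICB_Fp 3 and 71.4 FPKM in DSS_ICB 1. Ighv9-3 had 135 FPKM in DSS_ICB 5, against at most 28.8 FPKM elsewhere. In DSS 1, Igkv4-55 had 158 FPKM, Ighv2-4 had 98.4 FPKM and Ighv1-66 had 75.8 FPKM, against at most 15.8, 5.19 and 11.2 FPKM elsewhere. In DSS 2, Igkv1-117 had 174 FPKM and Ighv13-2 had 91.0 FPKM, against at most 47.4 and 3.36 FPKM elsewhere. These segments were picked for a share of at least 15% of their locus in a mouse, so that each has a high mouse is no finding.

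**Figure D4:**
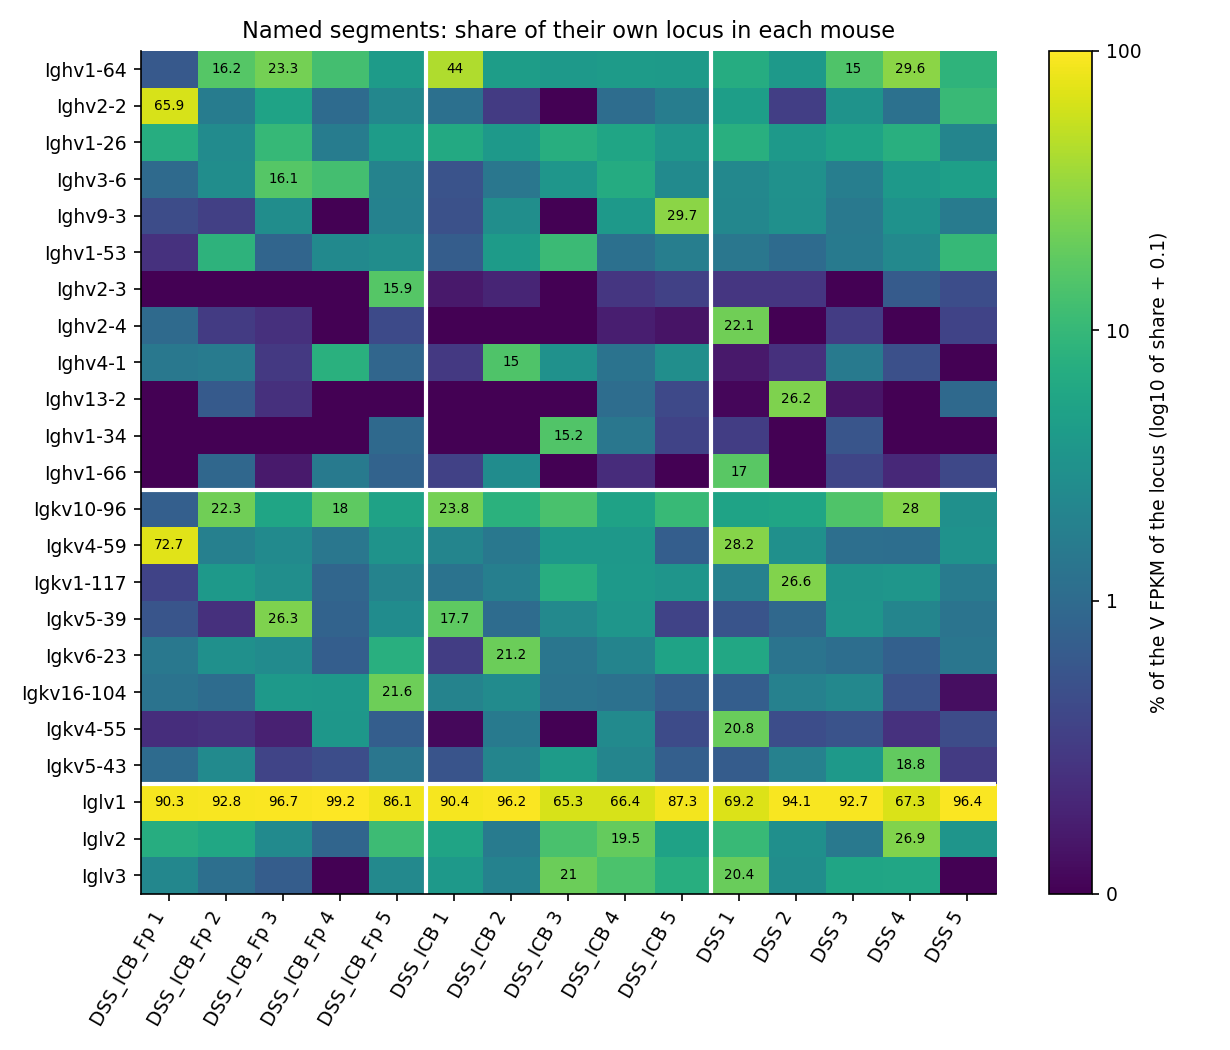
Share of the V FPKM of its own locus, in percent on a log colour scale, for 23 segments (rows) in the 15 mice (columns), with shares of 15% or more printed. Iglv1 holds 65.3% to 99.2% of the lambda locus in every column, whereas most heavy-chain and kappa rows have a high share in 1 or a few mice of different groups.

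The usage profile of a mouse was no closer to its own group than to the others. The overlap of 2 profiles was the sum over segments of the smaller of the 2 shares. Its median was 38.6% over the 30 pairs of mice within a group and 41.4% over the 75 pairs from different groups, and it ranged over all 105 pairs from 15.6% to 57.2%. Within DSS_ICB_Fp the median was 35.8%, within DSS_ICB 39.1% and within DSS 38.0%. Each mouse enters several pairs, so these are descriptions.

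Related segments form families, whose sums are less affected by the split of reads between near copies. Ighv1, the largest family with 53 members, held 47.1 ± 17.0% of the heavy V FPKM in DSS_ICB_Fp, 54.6 ± 14.4% in DSS_ICB and 53.5 ± 14.5% in DSS. Ighv2, with 9 members, held 19.9 ± 27.7% in DSS_ICB_Fp, 2.42 ± 1.87% in DSS_ICB and 10.8 ± 10.2% in DSS, and its 67.9% in DSS_ICB_Fp 1 was the highest. Igkv4, with 26 members, held 24.9 ± 29.1% of the kappa V FPKM in DSS_ICB_Fp, 15.1 ± 1.87% in DSS_ICB and 27.0 ± 20.9% in DSS. Its highest share, 75.9%, was in DSS_ICB_Fp 1. Without DSS_ICB 3 the DSS_ICB shares were 54.7 ± 16.6% for Ighv1, 3.02 ± 1.49% for Ighv2 and 15.8 ± 1.19% for Igkv4 (n = 4). The single members of the Ighv16, Igkv18 and Igkv20 families were listed at 0 in all files.

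Position along the locus showed no single favoured stretch. With segments ordered by distance from the constant genes, the nearest, middle and farthest of 3 near-equal parts of the heavy-chain locus held 31.1 ± 16.9%, 33.1 ± 10.9% and 35.7 ± 13% of the heavy V FPKM (SD over 15 mice). The same parts of the kappa locus held 26.2 ± 8.70%, 35.2 ± 17.3% and 38.6 ± 13.7% of the kappa V FPKM. Without DSS_ICB 3 these parts held 31.1%, 32.6% and 36.3% of the heavy and 25.8%, 35.9% and 38.3% of the kappa V FPKM. No test was run between the parts.

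Whether single segments changed was read from a limma fit of all genes on log2(FPKM + 1), with Benjamini-Hochberg adjustment over the 14385 genes that had at least 1 FPKM in at least 5 libraries. The filter kept 113 of the 218 members, and the other 105 were not tested. No member passed an adjusted p under 0.05 in any of the 3 comparisons. The log2 changes below are on that scale, which understates the change of low genes.

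DSS_ICB against DSS asks what blockade adds to DSS injury. In this limma fit 0 of the 113 tested segments passed, with a smallest adjusted p of 0.418, against 0.0209% of all genes tested, while 1 was higher and 4 were lower at an unadjusted p under 0.05, against 7.08% and 4.22% of all genes. The tested segments lay above 0 in 31 cases and below in 82, with a median of -0.33, beside a median of 0.02 over all genes. Without DSS_ICB 3 they split into 53 and 60, with a median of -0.05. No tested segment had groups that did not overlap, against 1.54% of all genes.

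The smallest p-values of that comparison belonged to 3 Igkv4 segments, which encode kappa V regions. Igkv4-74 had 0, 0, 0, 0.684 and 1.73 FPKM in DSS_ICB mice, against 26.1, 4.67, 2.46, 0.762 and 2.51 FPKM in DSS mice. DSS_ICB mice 1 to 4 lay below every DSS mouse, and the groups overlapped because DSS_ICB 5 lay above DSS 4. The log2 change of Igkv4-74 was -1.90 ± 0.65 (SE, limma, unadjusted p = 0.0106, adjusted p = 0.418). Leaving out each mouse in turn gave -2.28, without DSS 4, to -1.29, without DSS 1. Igkv4-79 had a log2 change of -1.24 and Igkv4-70 one of 1.72 (limma, adjusted p = 0.43 for each). Igkv4-70 rested mainly on DSS_ICB 1 and DSS_ICB 5, with 11 and 28.6 FPKM, and its log2 change was 1.07 without DSS_ICB 5.

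DSS_ICB_Fp against DSS_ICB asks what the bacterium adds to DSS and blockade. In this limma fit 0 of 113 segments passed, with a smallest adjusted p of 0.151, against 0.132% of all genes, while 4 were higher and 2 lower at an unadjusted p under 0.05, against 9.34% and 12.4% of all genes. The tested segments lay above 0 in 86 cases and below in 27, with a median of 0.37, beside -0.04 over all genes. The direction turned with 1 mouse. Without DSS_ICB_Fp 5 the segments split into 54 above and 59 below, with a median of -0.055, and without DSS_ICB 3 into 62 and 51, with a median of 0.09. No tested segment had groups that did not overlap, against 3.41% of all genes.

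Igkv3-4, a kappa V region, had the smallest p there. It had 1.93, 0.664, 0.508, 0 and 1.39 FPKM in DSS_ICB_Fp mice, against 19.5, 7.35, 0.211, 3.08 and 3.48 FPKM in DSS_ICB mice. Only DSS_ICB 3 fell within the range of the DSS_ICB_Fp mice. The log2 change was -1.55 ± 0.575 (SE, limma, unadjusted p = 0.0167, adjusted p = 0.151). Without DSS_ICB 3 it was -2.08 (limma, adjusted p = 0.0917), and leaving out each mouse in turn gave -2.08 to -1.06. Ighv1-80, a heavy-chain V region, had a log2 change of 1.12 (limma, adjusted p = 0.168) and Igkv4-70 one of -1.80 (limma, adjusted p = 0.172), or -1.16 without DSS_ICB 5.

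DSS_ICB_Fp against DSS shares its libraries with the other comparisons and sets both treatments against DSS alone. No member and no other gene passed in the limma fit, 0% of all genes, and the smallest adjusted p was 1. At an unadjusted p under 0.05, 2 segments were higher and 4 lower, against 0.591% and 0.82% of all genes. The tested segments lay above 0 in 55 cases and below in 58, with a median of -0.02. Without DSS_ICB_Fp 5 they split into 24 and 89, with a median of -0.46.

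In that comparison Igkv4-79, Igkv4-74 and Ighv8-8 had the smallest p-values, with log2 changes of -1.30, -1.66 and -1.13 (limma, adjusted p = 1 for each). Without DSS 1, the changes of Igkv4-74 and Ighv8-8 were -1.05 and -0.69. Igkv6-13, named after its values were seen because it was the only tested segment whose groups did not overlap, against 0.389% of all genes, had 0, 0.333, 0.113, 0 and 0.684 FPKM in DSS_ICB_Fp mice, against 1.83, 2.29, 1.41, 1.52 and 0.90 FPKM in DSS mice. All these levels were under 3 FPKM, and its limma adjusted p was 1.

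The constant genes give the antibody classes that the V segments were joined to. Igkc, the kappa constant gene, had 617, 180, 417, 104 and 1533 FPKM in DSS_ICB_Fp mice 1 to 5, 243, 475, 247, 324 and 438 FPKM in DSS_ICB mice 1 to 5, and 470, 386, 306, 142 and 315 FPKM in DSS mice 1 to 5. Igha, the constant gene of IgA, made up 96.4%, 89.9%, 82.2%, 90.8% and 82.0% of the summed heavy constant FPKM in DSS_ICB_Fp mice, 82.5%, 68.4%, 11.9%, 30.7% and 43.4% in DSS_ICB mice, and 56.8%, 55.9%, 49.3%, 50.5% and 92.3% in DSS mice. The DSS_ICB_Fp mice lay at the high end together with DSS_ICB 1 and DSS 5, and the groups overlapped. These shares are descriptions with no test. Of 12 constant genes, 9 were tested, and 0 passed in any comparison.

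In 13 of the 15 mice kappa V FPKM was 1.03 to 1.70 times that of Igkc, a narrower range than that of the heavy-chain ratio. The ratio of kappa V FPKM to Igkc FPKM was 1.45, 1.56, 1.63, 1.03 and 1.5 in DSS_ICB_Fp mice 1 to 5, 1.66, 0.417, 0.0900, 1.39 and 1.47 in DSS_ICB mice 1 to 5, and 1.61, 1.70, 1.41, 1.16 and 1.57 in DSS mice 1 to 5. DSS_ICB 3 and DSS_ICB 2 were the low ones. The ratio of heavy V to heavy constant FPKM was likewise 0.0453 in DSS_ICB 3 and 0.483 in DSS_ICB 2, against 1.14 to 2.49 in the other 13. DSS_ICB 3 therefore had few V reads although its Igkc, at 247 FPKM, exceeded that of DSS_ICB_Fp 2, DSS_ICB_Fp 4, DSS_ICB 1 and DSS 4.

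The same 2 mice were lowest in a ratio that involves no B cells. The summed FPKM of T cell receptor V genes over that of T cell receptor C genes was 0.231 in DSS_ICB 3 and 0.167 in DSS_ICB 2, against 0.445 to 1.04 in the other 13 mice. These ratios rest on low sums. The T cell receptor V genes summed to 5.63 FPKM in DSS_ICB 3 and 2.44 FPKM in DSS_ICB 2, against 3.31 to 24.5 FPKM in the other 13 mice. Mitochondrially encoded genes took 33.2% of the FPKM in DSS_ICB 3 and 9.39% in DSS_ICB 2, the highest and the lowest values of the series. What part RNA quality or the processing of reads has in these ratios was not tested.

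**Figure D5:**
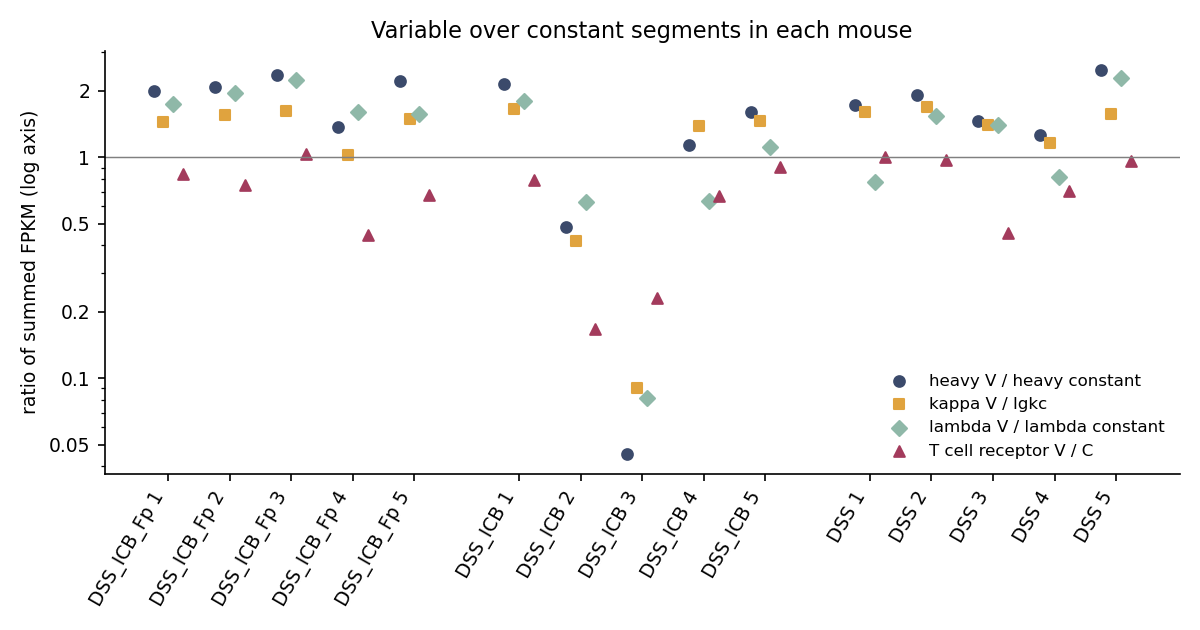
Ratio of summed V FPKM to summed constant FPKM (log axis) in each mouse, for the heavy, kappa and lambda loci and for the T cell receptor genes. DSS_ICB 3, at 0.0453 to 0.231, and DSS_ICB 2, at 0.167 to 0.629, are the lowest pair of mice on all 4 ratios. On the lambda ratio, however, DSS_ICB 2, at 0.629, does not stand apart from DSS_ICB 4, at 0.632.

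Markers of resting B cells differed widely between mice. The 9 follicular B cell markers reported, among them Cd79a, a signalling part of the B cell receptor, summed to 4.15, 4.03, 19.5, 3.32 and 87.5 FPKM in DSS_ICB_Fp mice 1 to 5. They summed to 17.5, 34.0, 90.2, 143 and 172 FPKM in DSS_ICB mice 1 to 5, and to 116, 74.8, 87.7, 43.2 and 4.79 FPKM in DSS mice 1 to 5. DSS_ICB_Fp 1, with 9.47 effective segments, had one of the lowest sums, and DSS_ICB 4, with 87.0 effective segments, had the second highest. DSS 5, however, had a sum of 4.79 FPKM with 54.1 effective segments, so the 2 measures did not move together in every mouse. All 9 markers were tested, and 0 passed in each comparison. In DSS_ICB_Fp against DSS_ICB, 9 of 9 lay below 0 (median log2 change -1.39), as did 9 of 9 in DSS_ICB_Fp against DSS (median -1.11). In DSS_ICB against DSS, 8 of 9 lay above 0 (median 0.31). What part follicular B cells have in the number of segments used was not tested.

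The 10 plasma cell markers, among them Jchain, which links IgA and IgM units, and Xbp1, a regulator of secretion, summed to 124 to 285 FPKM in DSS_ICB_Fp mice, 81.7 to 188 FPKM in DSS_ICB mice and 132 to 176 FPKM in DSS mice. Jchain was 15.1 to 142 FPKM in DSS_ICB_Fp, 3.54 to 36.1 FPKM in DSS_ICB and 19.9 to 77.0 FPKM in DSS, lowest in DSS_ICB 3 and highest in DSS_ICB_Fp 5, as was the V total. Of the 8 plasma cell markers tested, 0 passed in any comparison. Several of these genes, such as Xbp1 and Sdc1, are also expressed by colon epithelium.

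Genes that build V regions in B cell precursors were at most 0.403 FPKM in every mouse, and 0 of the 6 were tested. Rag2, Vpreb2 and Igll1, the RAG partner and parts of the surrogate light chain, were listed at 0 in all 15 files, and Rag1 was at most 0.0156 FPKM. Dntt, which adds bases at the joins, was at most 0.0674 FPKM. Vpreb1, another part of the surrogate light chain, was above 0 in all mice but DSS_ICB_Fp 2 and highest, at 0.403 FPKM, in DSS_ICB 3. Of the 3 octamer factor genes, whose products act at V promoters, Pou2af1 had 0.638 to 13.8 FPKM in DSS_ICB_Fp, 1.51 to 17.2 FPKM in DSS_ICB and 0.846 to 13.8 FPKM in DSS, and 0 of the 3 passed in any comparison. Of the marker lists for other cells, 0 of 3 tested germinal centre, 0 of 9 epithelium, 0 of 4 T cell and 0 of 4 smooth muscle genes passed in any comparison. All 4 neutrophil genes passed as lower in DSS_ICB_Fp against DSS_ICB in the limma fit of all 3 groups (adjusted p up to 0.0404). In a limma fit of the 2 compared groups alone 0 of the 4 passed (adjusted p = 0.126 to 0.216), and without DSS_ICB 3 the limma fit called 3 of 4, with 2 to 4 called over the mice left out in turn. They summed to 1.17 to 29.4 FPKM in DSS_ICB_Fp and 120 to 1970 FPKM in DSS_ICB, or 120 to 819 FPKM without DSS_ICB 3. Their part in the V segment values was not tested.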

How the data were processed

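Colon RNA of 15 mice was sequenced, 5 per group, numbered here within a group only as names. Per the submitters' processing notes, FastQC, STAR 2.5, mm10, Cuffnorm and DESeq were used, and the authors deposited 1 FPKM value per gene and mouse. How multi-mapped reads were counted is not given in the sources used here. The deposited files hold no counts, so depth was estimated from the steps of low FPKM values.

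Members were matched by gene ID to GENCODE M21. Totals, segments with at least 1 FPKM, effective numbers and shares were computed in Python 3.11.15 (numpy 2.4.6, pandas 2.3.3) and given no test. Genes with at least 1 FPKM in at least 5 libraries entered 1 limma 3.58.1 fit (R 4.3.3, trend and robust) on log2(FPKM + 1) over all 15 libraries, with 3 contrasts and Benjamini-Hochberg adjustment. The script was tested on simulated data. V exons were compared with BLAST+ 2.17.0.

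Named segments were the 6 heavy, 6 kappa and 3 lambda segments with the highest mean share of their locus, any at 15% or more of its locus in a library, any that passed or else the 3 with the smallest p per contrast, and the genes of the B-lineage lists. Members and lists were chosen with earlier results of these data known. A gene of the follicle list is not reported here and was left out of its sums and counts. Alternatives covered the pseudocount, the filters, the measures of breadth, the groups in the fit and each replicate left out. No sample was left out of the results as given.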

Additional observations from a re-analysis of the deposited data

Results flagged for a closer look

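The gap of the highest or lowest mouse to the nearest mouse of its group was divided by the range of the group. A mouse was marked where this share exceeded Dixon's 95% critical value, 0.71 for 5 mice. Chance marks about 1 in 20 groups where values are normally distributed, which was not checked for these untransformed values. In 117 groups 29 marks arose, 12 in DSS_ICB_Fp, 4 in DSS_ICB and 13 in DSS. Segments named for a share of at least 15% in a mouse were chosen for being high there, so their marks are no independent finding.

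In DSS_ICB_Fp 5 the heavy V total was 1408 FPKM. That mouse also had the marked values of Igkv16-104 (495.5 FPKM), Ighv2-3 (224.3), Igkv6-23 (176.2), Igkv5-43 (31.87), Iglv2 (17.76), Igkv4-55 (15.78), Ighv1-34 (13.63), Ighv1-66 (11.19) and Iglv3 (3.815). DSS_ICB_Fp 1 was marked for Igkv4-59 (648.6 FPKM) and Ighv2-2 (288.1).

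DSS_ICB 1 was marked for Ighv1-64 (100.4 FPKM) and Igkv5-39 (71.35), DSS_ICB 4 for Igkv4-55 (11.7) and DSS_ICB 5 for Ighv9-3 (135.3).

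DSS 1 was marked for Igkv4-59 (214.0 FPKM), Igkv4-55 (157.7), Ighv2-4 (98.43), Ighv1-66 (75.84), Igkv6-23 (47.53) and Ighv1-26 (34.31). DSS 2 was marked for Igkv1-117 (174.0 FPKM) and Ighv13-2 (90.98), DSS 3 for Igkv5-39 (15.36) and Ighv4-1 (4.173), and DSS 5 for Ighv1-53 (34.53). DSS 4 was marked as low, with 45 V segments used and 14 heavy V segments used.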

How the results depend on the processing

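No V segment passed in any comparison under any alternative run, and the groups overlapped in all 42 checks of breadth and level. Mean segments used were 126 in DSS_ICB_Fp, 125 in DSS_ICB and 144 in DSS at 0.1 FPKM, and 24.2, 13.4 and 18.8 segments in DSS_ICB_Fp, DSS_ICB and DSS at 10 FPKM. At 0.1% or more of the V FPKM of the mouse, they were 82.4 in DSS_ICB_Fp, 97.6 in DSS_ICB and 98.6 in DSS. The inverse Simpson index averaged 18.4 in DSS_ICB_Fp, 29.8 in DSS_ICB and 22.9 in DSS. The top 5 segments held 45.8% in DSS_ICB_Fp, 35.2% in DSS_ICB and 39.5% in DSS. These means include DSS_ICB 3. Genes changed in DSS_ICB against DSS numbered 0 with a pseudocount of 0.1, and 1 with a pseudocount of 10, with no filter or with the 2 compared groups only. In DSS_ICB_Fp against DSS_ICB they numbered 42 with a pseudocount of 0.1, 5 with 10, 7 with no filter and 0 with the 2 compared groups only. The median change of the tested segments in DSS_ICB_Fp against DSS was 0.032 with a pseudocount of 10. With each mouse left out in turn, mean totals were 807 to 1720 FPKM in DSS_ICB_Fp, 433 to 720 in DSS_ICB and 772 to 1010 in DSS. Segments used were 63.2 to 91.0, 62.5 to 92.5 and 86.5 to 102 in those groups, effective numbers 31.1 to 43.3, 44.5 to 58.2 and 44.1 to 51.2, and top 10 shares 54.0 to 63.2%, 43.9 to 51.6% and 50 to 54.6%. Genes changed were 0 to 7 in DSS_ICB against DSS, 5 to 598 in DSS_ICB_Fp against DSS_ICB, highest without DSS_ICB 1, and 0 in DSS_ICB_Fp against DSS. The segments' median log2 change was -0.698 to -0.048 in DSS_ICB against DSS, -0.055 to 0.651 in DSS_ICB_Fp against DSS_ICB and -0.456 to 0.259 in DSS_ICB_Fp against DSS. The cause of these shifts was not tested. With DSS_ICB 3 and DSS_ICB 5 left out together, chosen after seeing the data, 2, 21 and 0 genes changed in the same order of comparisons. No paired analysis was possible because each title number belongs to 1 mouse and none recurs across groups. Depth limits DSS_ICB 3, with an estimated 183 V fragments.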
